A study of Mus musculus with 8 samples.

Results

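Described here are 10 keratin genes, out of 31053 genes counted in mouse dorsal skin. They were taken by name and fall into 3 groups: the basal keratins Krt5, Krt14 and Krt15, the suprabasal keratins Krt1, Krt10 and Krt77, and the 4 wound-type keratins Krt6a, Krt6b, Krt16 and Krt17. The skin had been taken as punch biopsies and dissociated, and dead cells had been removed by sorting. Single-cell RNA sequencing (10x Genomics, 3′ ends) had been done on 8 libraries, 4 from skin injected with PBMCsec and 4 from skin given a vehicle control. PBMCsec is the secretome, that is the factors released into culture medium, of irradiated human peripheral blood mononuclear cells. All animals were female BALB/c mice of 14 to 16 weeks with no transgene or knockout named in the labels. The labels describe subcutaneous injection but give neither the vehicle solution, the time after treatment nor whether the skin was scarred. The labels also do not say whether these were the same in all libraries of a group. Nothing in them says that each library came from its own animal, so p-values here measure only the spread between these libraries. The comparison asks whether keratin expression of skin epithelium differed after PBMCsec.

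Keratins are the intermediate filament proteins of epithelia. Each filament is built from pairs of 1 type I and 1 type II chain. Dividing keratinocytes of the basal layer make Krt5 and Krt14, and Krt15 is high in parts of the basal layer and in the follicle bulge. Cells that leave the basal layer switch to Krt1 and Krt10, with Krt77 as a further suprabasal type II chain. Krt6a, Krt6b, Krt16 and Krt17 are best known for their induction in interfollicular epidermis after wounding, while some of them are also made all the time in the hair follicle.

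The 10 genes lie in 2 keratin clusters of the genome and all are read from the minus strand (GRCm38, GENCODE annotation). The type II genes Krt6b, Krt6a, Krt5, Krt1 and Krt77 have 9 exons each and lie within 193683 bases of chromosome 15, from 101676023 to 101869705. The type I genes Krt10, Krt15, Krt14, Krt16 and Krt17 have 8 exons each and lie on chromosome 11 between 99385254 and 100261029. Krt6a (101689910 to 101694307) and Krt6b (101676023 to 101680287) are near copies, with 90.7% identity over their transcripts. Over the last 500 bases, where 3′ reads fall, identity was 69.8%, and 0 of 426 windows of 75 bases, the read length, were shared. Reads of this kind could therefore be told apart, although 797 of 2204 such windows were shared over the whole Krt6a transcript. Krt14, Krt16 and Krt17 shared 0 such windows near their 3′ ends as well, but longer runs of identical bases. The longest run there was 71 bases for Krt14 and Krt17, close to the read length. It was 55 bases for Krt16 with Krt14 and with Krt17, and 22 for Krt6a and Krt6b. Krt10 overlaps a counted antisense gene, Gm11940, which held 40 UMIs (unique molecular identifiers, 1 per captured molecule) in all kept cells. Krt6a overlaps the antisense gene Gm49428.

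Windows of 250 bases before to 50 bases after the gene start were matched by symbol in RefSeq (GRCm38.p6) for 4 of the 10 keratins. Those of Krt5 and Krt10 are shown. That of Krt14 lies inside the annotated gene and that of Krt77 holds none of the letters searched. They stand for the basal and the suprabasal program, which are the main division of the levels below. Capitals mark the TATA box letters TATAAA in Krt10, 26 bases before the start, and the TATA-like letters ATAAAAG in Krt5, 29 bases before it. These letters were searched on both strands, and the second were chosen after the Krt5 window had been read. Both can match at overlapping places, where TATAAA is followed by AG. The letters searched for AP-1 (TGANTCA), Sp1 (GGGCGG) and AP-2 (GCCNNNGGC) had no match in these windows and occur in 7.81%, 35.7% and 16.6% of all windows. TATAAA occurred in 13.6% and ATAAAAG in 5.42% of 32851 windows of this length, and the matches are a description of letters only. The windows lie at chr15:101712856-101713155 for Krt5 and chr11:99389315-99389614 for Krt10, minus strand.
Krt5: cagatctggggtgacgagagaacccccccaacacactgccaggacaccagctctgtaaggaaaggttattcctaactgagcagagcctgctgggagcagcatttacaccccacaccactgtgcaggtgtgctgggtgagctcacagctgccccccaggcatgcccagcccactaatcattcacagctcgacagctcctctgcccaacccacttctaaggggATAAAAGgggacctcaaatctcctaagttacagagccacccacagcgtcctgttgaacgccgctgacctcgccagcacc
Krt10: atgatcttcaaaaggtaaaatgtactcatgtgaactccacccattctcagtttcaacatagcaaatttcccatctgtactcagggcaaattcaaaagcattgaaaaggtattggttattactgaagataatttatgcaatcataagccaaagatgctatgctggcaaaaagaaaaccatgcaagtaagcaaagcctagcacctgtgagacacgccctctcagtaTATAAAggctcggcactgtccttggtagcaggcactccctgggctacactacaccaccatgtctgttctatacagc

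The libraries held 14753926 to 37880651 UMIs in 26231 barcodes. After the study's limits (between 500 and 4000 genes, no more than 20000 UMIs, mitochondrial share up to 5%) 6150 cells were kept, 151 to 1659 per library, and 16900 barcodes were over the mitochondrial limit. Of the kept barcode sequences, 4 were found in more than 1 library. Clusters were built without any keratin gene and named from other markers, so that keratin levels were not used to name them. Of 35 clusters, 12 were epithelial by Epcam, Cdh1, Dsp and other markers and held 2860 cells. All 11 epithelial markers were above 10 CPM (UMI counts scaled to 1000000 per group of cells) in them. The interfollicular-like keratinocytes (basal-like, suprabasal-like and activated-like clusters) held 824 cells. Vehicle library 1 gave only 25 epithelial and 7 interfollicular-like cells, and PBMCsec library 2 gave 64 and 15. The treatment values of Krt6a and Krt77 that rest most on vehicle library 1 are also given without it.

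Of the basal keratins, Krt5 and Krt14 were highest in the basal-like cluster, which was named from Col17a1, Itga6, Itgb4 and Dst among others. All levels across clusters are CPM pooled over libraries, followed by the range over libraries with at least 10 cells of the cluster. They are a description without a test. Krt14 reached 21671 CPM there (18920 to 31346 in 6 libraries), against 62.4 CPM in all named non-epithelial cells. The Krt14 range overlapped that of the next cluster, the unnamed cluster 14, at 17451 CPM (12126 to 19725). Krt5 was at 10102 CPM (9057 to 12430), and its range did not overlap that of the next cluster, the activated-like one, at 7462 CPM (6120 to 8228). After each cell had been thinned to 2000 UMIs, 100% of basal-like cells held a Krt14 UMI, against 10.7% of fibroblast-like cells.

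Krt15 had another order. It was highest in the bulge-like cluster at 8829 CPM (4395 to 12769), followed by the basal-like cluster at 8150 CPM (4583 to 10575) and the contractile follicle-like cluster at 6378 CPM (3660 to 7489). For Krt15 all 11 pairs of neighbouring clusters overlapped in their library ranges. In the contractile follicle-like cluster Krt14 was at 889 CPM, and in the unnamed cluster 14 the reverse was seen, with Krt14 at 17451 CPM and Krt15 at 424 CPM (177 CPM without PBMCsec library 1). The basal keratins thus did not follow one order over the follicle.

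Suprabasal keratins were confined more narrowly than the basal ones. The suprabasal-like cluster, named from Krtdap, Sbsn, Dsg1a and similar genes, held 90.4% of all epithelial Krt1 UMIs and 83.0% of those of Krt10. Krt10 was at 11042 CPM there (3507 to 12286) and Krt1 at 8418 CPM (2597 to 9087). The lowest value of both came from PBMCsec library 1, while the other 4 libraries with enough cells lay between 11005 and 12286 CPM for Krt10. Krt5 and Krt14 remained at 2785 and 6019 CPM in these cells. Krt77 was highest in the infundibulum-like cluster, the funnel of the hair follicle, at 2615 CPM (982 to 5661), and second in the suprabasal-like cluster at 1223 CPM (564 to 1959), with overlapping ranges.

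The infundibulum-like cluster held suprabasal keratins and Krt17 with little Krt5. It was named from Defb6, Cst6, Klk10 and Sprr1a. Krtdap, Sbsn, Dsg1a and other suprabasal markers and the granular marker Cdsn were also found in it, so it was not set apart from suprabasal cells by its markers alone. Krt10 was at 4559 CPM and Krt1 at 749 CPM, a Krt10 to Krt1 ratio of 6.09 against 1.31 in the suprabasal-like cluster. Krt5 was at 27.4 CPM, below the 37.9 CPM of all named non-epithelial cells, while its type I partner Krt14 was at 1291 CPM. Krt17 was at 15438 CPM (11479 to 24084), the highest level of that keratin in any cluster. With only 96 cells, Krt1 ranged from 0.0 to 1748 CPM between libraries of this cluster.

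Among the wound-type keratins, Krt17 and Krt6a were highest outside the interfollicular-like clusters. Beside the infundibulum-like cluster, Krt17 was at 11823 CPM (10199 to 13020) in cluster 14 and at 10617 CPM (9206 to 11722) in cluster 16. Neither cluster could be named. Both held Wfdc18 and Pthlh, listed as markers of the companion layer of the follicle, beside single markers of other lists. That was below the 3 markers needed for a name. Cluster 14 led with Rnase12, Wfdc18 and Lrat, and cluster 16 with Pthlh, Dclk1 and Kalrn. In the basal-like cluster Krt17 was at 264 CPM, its lowest value over the 12 clusters. That was still 7.97 times the level in non-epithelial cells.

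Krt6a was concentrated in 1 cluster. Among kept cells, cluster 14 held 62.6% of the epithelial Krt6a UMIs, at 3425 CPM (1809 to 4508), and 90.1% of its cells held a Krt6a UMI after thinning. The bulge-like cluster followed at 532 CPM (295 to 1323), with no overlap of ranges. The remaining clusters held 17.2 to 324 CPM, and non-epithelial cells 6.57 CPM. With no upper limit on genes and UMIs epithelial barcodes held more Krt6a UMIs (given with Krt6b below), and those are not part of these levels.

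Krt16 had its highest level in the activated-like cluster, which was named from Serpinb2, Fosl1 and Hbegf and also carried basal markers. It stood at 1066 CPM (613 to 1767) there and at 772 CPM (459 to 1645) in the suprabasal-like cluster. Thinned to equal depth, 51.9% of activated-like cells held a Krt16 UMI, against 9.21% of basal-like cells and 0.904% of fibroblast-like cells. In the bulge-like cluster Krt16 was at 127 CPM (9.33 to 968, and 21.4 without PBMCsec library 1), and in the outer root sheath-like cluster at 5.87 CPM. Krt17 was at 4609 and 3240 CPM there. The type I wound keratins Krt16 and Krt17 thus had different orders of clusters (r = -0.28 over 12 clusters, as a description).

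Krt6b was rare. It had 447 UMIs in 2860 epithelial cells, and 85.2% of them came from the suprabasal-like cluster, at 120 CPM (1.13 to 1012, median 11.4). Without PBMCsec library 1 the level was 54.6 CPM and the share 74.7%. In this cluster 15 cells held at least 3 Krt6b UMIs, 14 of them in 3 PBMCsec libraries. In cluster 14, with 7103 Krt6a UMIs, only 13 Krt6b UMIs were counted, that is 0.183 per 100. In the suprabasal-like cluster there were 37.0 Krt6b UMIs per 100 of Krt6a, and 20.2 without PBMCsec library 1.

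**Figure D1:**
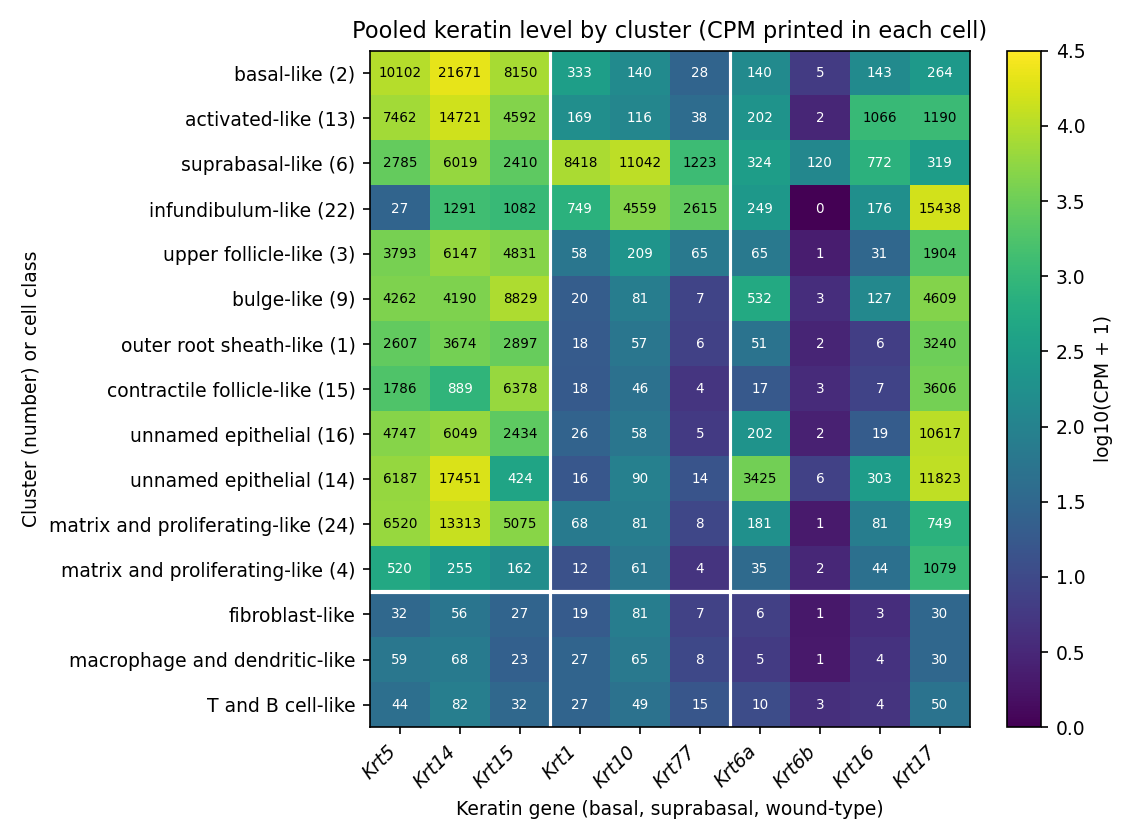
Heat map of the pooled level of the 10 keratins (columns) in 12 epithelial clusters and 3 other cell classes (rows), with colour as log10(CPM + 1) and the CPM printed in each cell. Krt1 and Krt10 stand out in the suprabasal-like row, Krt17 in clusters 22, 14 and 16, Krt6a in cluster 14, and levels below the white line are those found in cells of other types.

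Type I and type II partners were compared by their UMI ratios between clusters. Counts of 3′ ends do not compare absolute levels of 2 genes exactly, but the ratio of the same pair can be followed. Krt14 to Krt5 was 2.15 in the basal-like, 1.97 in the activated-like and 2.16 in the suprabasal-like cluster, and 1.76 to 2.95 over the 7 libraries with at least 10 interfollicular-like cells. It was 0.983 in the bulge-like (0.654 to 1.78 over libraries) and 0.498 in the contractile follicle-like cluster (0.309 to 0.633). The highest bulge-like ratio, in PBMCsec library 4, reached the interfollicular-like range. Krt10 to Krt1 was 1.31 in the suprabasal-like cluster, with 1.25 to 1.39 over 5 libraries, PBMCsec library 1 with its lower levels included. The sum of Krt16 and Krt17 was 2.46 times that of Krt6a and Krt6b in the suprabasal-like cluster, 3.53 times in cluster 14 and 52.1 times in cluster 16. Type II partners of Krt17 other than Krt6a and Krt6b, such as Krt5 and Krt75, were not part of this ratio.

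Over the 12 epithelial clusters Krt10 and Krt77 were most alike among the keratins (Pearson r = 0.97 of log2(CPM + 10), as a description), followed by Krt1 and Krt10 with r = 0.91. Krt5 and Krt14 had r = 0.72, and Krt6a and Krt16 had r = 0.63. Among 5543 other genes, Krt10 was most like Tmprss4 (r = 0.99), Serpinb3b (r = 0.98) and Ly6g6e (r = 0.97). Krt14 was most like Pfkp (r = 0.95), a glycolysis enzyme, Anxa2 (r = 0.92) and Arhgap18 (r = 0.92). Krt6a was most like mt-Nd5 (r = 0.88), Slc22a15 (r = 0.85) and Rragc (r = 0.81). Clusters share libraries and depth.

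Keratin UMIs were also found in cells of other types. Summed over the 10 genes, named non-epithelial cells held 217 ± 104 CPM (SD, n = 4) in PBMCsec and 254 ± 210 CPM in vehicle libraries. The values were 152, 136, 216 and 365 CPM for PBMCsec and 107, 165, 565 and 179 CPM for vehicle, which overlapped (exact two-sided permutation test, p = 0.857). Vehicle library 3 stood highest. After thinning, 11.1% of non-epithelial cells held a Krt14 UMI and 1.38% held a Krt6a UMI, against 79.5% and 18.7% of epithelial cells. Median depth was 6369 and 10026 UMIs per cell, respectively. Levels near these are read here as background.

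The share of Krt10 among keratin UMIs differed between cell classes. Krt10 made up 16.5 to 41.9% of the UMIs of the 10 keratins in fibroblast-like cells and 6.02 to 23.3% in T and B cell-like cells. In macrophage and dendritic-like cells it made up 10.8 to 36.8%, and in epithelial cells 0.438 to 8.46%. The share was higher in fibroblast-like than in T and B cell-like cells in 8 of 8 libraries. By CPM, Krt10 was higher in fibroblast-like cells in 7 of 8 libraries, with vehicle library 3 as the exception (121 against 179 CPM), while Krt14 was higher in fibroblast-like cells in 1 of 8. In pooled values fibroblast-like cells held 80.8 CPM of Krt10 and 19.0 CPM of Krt1. The antisense gene Gm11940 held 8 UMIs in these cells, against 1116 of Krt10. The part of free RNA in these UMIs was not tested.

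**Figure D2:**
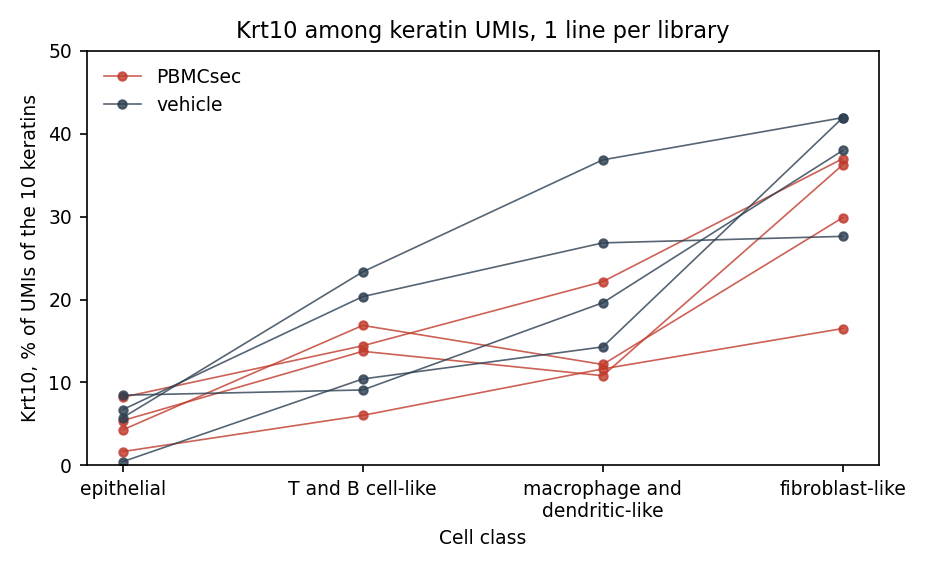
Share of Krt10 (%) among the UMIs of the 10 keratins in 4 cell classes (x axis), with 1 line per library, red for PBMCsec and dark blue for vehicle. Every line is higher at fibroblast-like cells than at T and B cell-like cells, and 2 vehicle points coincide at 41.9%.

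For the treatment, UMIs were summed per library over all epithelial cells and tested with edgeR's quasi-likelihood test. None of the 10 keratins was called at an adjusted p under 0.05, as were 0.0% of all 10931 genes tested, while 49 lower and 116 higher genes had an unadjusted p under 0.05. With DESeq2 1 gene was called, BC100530, which is no keratin. The median log2 difference (PBMCsec minus vehicle) was -0.04 over the 10 keratins and 0.00 over all genes. In simulated data of this depth the test found 92.6% of 4-fold and 24.2% of 2-fold changes. Spread in the simulation followed the trend over all genes, not each keratin's own spread. These shares therefore cannot be carried over to single keratins.

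Basal keratins were close to each other in both groups. Krt14 was at 9560, 7948, 8103 and 8449 CPM (scaled by edgeR's TMM factors, as are all CPM of this comparison) in PBMCsec libraries 1 to 4. In vehicle libraries 1 to 4 it was at 7202, 10276, 7474 and 9036 CPM. The groups overlapped, with vehicle library 2 highest and vehicle library 1 lowest. The log2 difference was 0.00 ± 0.14 (SE, derived from the F statistic of the test, as for all log2 differences here). Krt5 (-0.13 ± 0.18) and Krt15 (-0.04 ± 0.27) overlapped as well, and the adjusted p of edgeR was 1.0 for all 3.

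Suprabasal keratins varied widely between the libraries of each group. Krt10 was at 376, 1084, 2034 and 1026 CPM in PBMCsec and at 1115, 110, 1451 and 2324 CPM in vehicle libraries, a log2 difference of -0.15 ± 0.68. Krt1 had -0.04 ± 0.69. Vehicle library 2 was lowest for both, and 1.28% of its epithelial cells, a single cell, lay in the suprabasal-like cluster, against 6.78 to 14.1% in the other 7 libraries. In such sums fewer suprabasal cells and less keratin RNA per cell cannot be told apart. Krt77 had a log2 difference of -1.02 ± 0.69, with 102 to 304 CPM in PBMCsec and 37.2 to 914 CPM in vehicle libraries. Its highest value was in vehicle library 1 with 25 cells, of which 12% were infundibulum-like. Without that library the log2 difference was -0.29 ± 0.64.

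Of the wound-type keratins, 3 had log2 differences near 0 in all epithelial cells and Krt6b was higher at an unadjusted p. Krt17 was at 2774, 3625, 2625 and 5492 CPM against 2836, 2884, 3209 and 4616 CPM (log2 difference 0.10 ± 0.25). Krt16 had 0.11 ± 0.42 and Krt6a -0.05 ± 0.35. With no upper limit on genes and UMIs Krt16 was at 1.35 ± 0.59, with an unadjusted p of 0.045 and an adjusted p of 1.0 in edgeR, and Krt6a at 0.995 ± 0.55. Without PBMCsec library 1 Krt16 was at -0.51, and libraries 3 and 4 of each group alone gave -0.96 for Krt6a. Krt6b was at 91.8, 21.6, 1.93 and 36.5 CPM in PBMCsec and at 0.0, 0.0, 2.89 and 2.55 CPM in vehicle libraries. Its log2 difference was 4.02 ± 1.01 with an unadjusted p of 0.0021 and an adjusted p of 1.0 in edgeR, where 1.06% of all genes were higher at an unadjusted p under 0.05. PBMCsec library 3 lay within the vehicle range, while libraries 1, 2 and 4 lay above it. Of the 10 keratin UMIs, the wound-type share was 19.0 ± 5.74% in PBMCsec and 17.1 ± 2.56% in vehicle libraries (exact permutation test, adjusted p = 0.876 over 4 shares). The suprabasal share was 9.14 ± 4.94% and 10.6 ± 6.64% (adjusted p = 0.876).

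**Figure D3:**
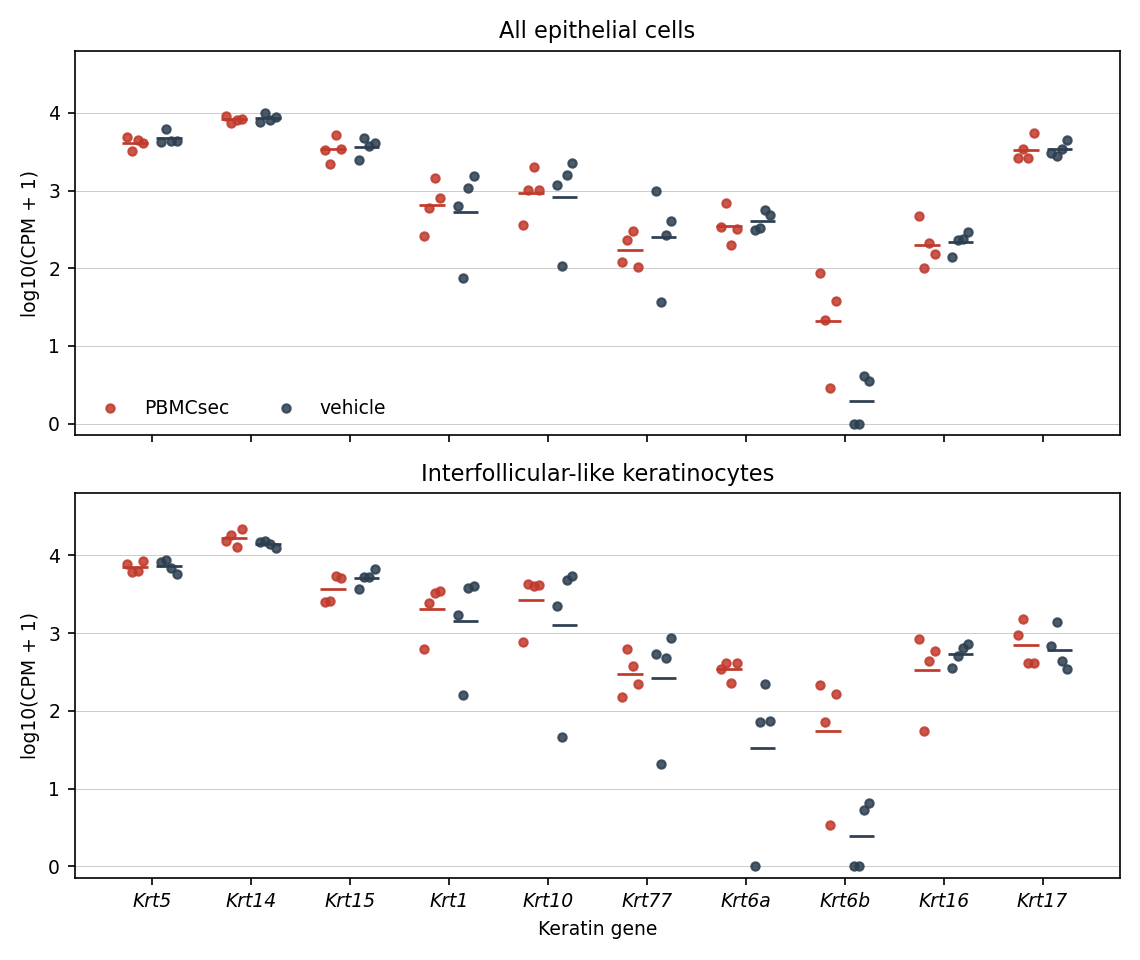
Level of each keratin as log10(CPM + 1), without TMM scaling, in all epithelial cells (top) and interfollicular-like keratinocytes (bottom), 1 point per library (red, PBMCsec; dark blue, vehicle), with a line at the mean of the log values of 4 libraries. In the bottom panel the Krt6a points of the groups do not overlap, while the points of all other keratins do.

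The interfollicular-like keratinocytes were tested alone, since wound-type keratins are induced there. Of the 7233 genes tested by edgeR, 0.0% were called, while 33 lower and 53 higher genes had an unadjusted p under 0.05. With DESeq2 1 gene was called, Gadd45g. Of the keratins, 9 passed the filter on low counts and 0 were called. Krt6b did not pass it. Vehicle library 1 was kept with its 7 cells, below the 10 cells planned as a minimum.

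Krt6a was at 352, 435, 231 and 431 CPM in PBMCsec and at 0.0, 75.5, 216 and 76.8 CPM in vehicle libraries. The groups did not overlap, which held for 1.33% of all genes tested. The log2 difference was 1.71 ± 0.46 with an unadjusted p of 0.0020 and an adjusted p of 1.0 in edgeR, where 0.733% of all genes were higher at an unadjusted p under 0.05. With no filter on low counts Krt6a was called (log2 difference 1.68, adjusted p = 0.00023 in edgeR), among 23 called of 15176 genes. The hemoglobin genes Hba-a1, Hba-a2 and Hbb-bs were among these 23 as well. Libraries 1 and 2 of each group alone also gave a call of Krt6a (2.91), among 7 called of 3768 genes. Libraries 3 and 4 alone gave 1.16 and no call. The difference was 1.5 without vehicle library 1 and 2.5 without vehicle library 3, and over the 6 libraries with at least 20 interfollicular-like cells it was 1.43 ± 0.41, with an adjusted p of 1.0. In vehicle library 1 there were 0 Krt6a UMIs of 78619, which allows up to 38.2 CPM. PBMCsec library 3 (231 CPM) and vehicle library 3 (216 CPM), the largest libraries with 224 and 242 cells, were nearly equal. In PBMCsec libraries 1, 2 and 4, 14 suprabasal-like cells with at least 3 Krt6b UMIs (described below) were at 5301 CPM of Krt6a. The other 51 suprabasal-like cells of these libraries were at 136 CPM, and those of the remaining libraries at 189 CPM (pooled). Few cells thus carried much of the Krt6a of these 3 libraries, and the group difference without them was not tested.

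The share of interfollicular-like cells with a Krt6a UMI, thinned to 2000 UMIs, was 25.3, 18.2, 17.3 and 20.6% in PBMCsec libraries. In vehicle libraries it was 0.0, 12, 16.5 and 6.67%. The means of 20.3 ± 3.60% and 8.78 ± 7.09% differed with an exact permutation p of 0.0286, the smallest that 4 against 4 libraries allow. Adjusted over the 4 wound-type keratins p was 0.114. Without vehicle library 1 the means differed by 8.64 in place of 11.6 percentage points (exact permutation p = 0.0571, the smallest that 7 libraries allow). Fibroblast-like and T and B cell-like cells had 1.23 and 2.47%. Thinning left out 26 PBMCsec and 13 vehicle cells, and without it the shares were 38.0 and 15.4% (exact permutation p = 0.0571). For cells with at least 3 Krt6a UMIs after thinning, the means differed by 4.54 percentage points (exact permutation p = 0.114).

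By cluster, Krt6a of the suprabasal-like cells was at 1063, 584, 214 and 936 CPM in PBMCsec and at 0.0, 0.0, 269 and 78.6 CPM in vehicle libraries, from 29, 9, 70 and 27 and from 3, 1, 82 and 58 cells. In basal-like cells it was at 152, 132, 151 and 172 CPM in PBMCsec and at 0.0, 0.0, 194 and 70.3 CPM in vehicle libraries. PBMCsec library 2 and vehicle library 1 had fewer than 10 basal-like cells, 4.69% of 64 and 4% of 25 epithelial cells. In vehicle library 2 they were 14.1% of 78. Vehicle library 3 lay within or above the PBMCsec range in both clusters, and vehicle library 4 below it. In activated-like cells Krt6a was at 162, 559, 390 and 29.2 CPM in PBMCsec and at 0.0, 134, 178 and 60.7 CPM in vehicle libraries, from 35, 3, 54 and 16 and from 3, 13, 58 and 29 cells. PBMCsec library 4 was the lowest there of the 6 libraries with at least 10 cells, and the groups overlapped.

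Krt16 and Krt17, the type I keratins of the wound group, overlapped between groups. Cells with a Krt16 UMI made up 23.3 ± 18.2% in PBMCsec and 30.1 ± 9.62% in vehicle libraries, and those with a Krt17 UMI 29.6 ± 14.4% and 38.2 ± 14.7% (exact permutation, adjusted p = 0.571 for both). By level, Krt16 had a log2 difference of -0.18 ± 0.45 and Krt17 of 0.21 ± 0.46. Both groups ranged widely for Krt16, from 57.5 to 860 CPM in PBMCsec and from 335 to 768 CPM in vehicle libraries. The wound-type share of keratin UMIs in these cells was 5.10 ± 2.22% and 4.04 ± 1.48% (exact permutation, adjusted p = 0.876).

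The other keratins of interfollicular-like keratinocytes overlapped between groups. Krt14 was at 15470, 19277, 13016 and 22769 CPM in PBMCsec and at 14111, 16115, 13637 and 13135 CPM in vehicle libraries, a log2 difference of 0.31 ± 0.16. Krt15 had -0.41 ± 0.26, Krt5 -0.02 ± 0.17, Krt1 0.06 ± 0.64, Krt10 0.09 ± 0.77 and Krt77 -0.52 ± 0.64. The adjusted p of edgeR was 1.0 for each. The suprabasal share of keratin UMIs was 16.5 ± 7.81% in PBMCsec and 16.9 ± 12.5% in vehicle libraries (exact permutation, adjusted p = 0.914).

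Fibroblast and immune markers were present at low levels in these cells. Of 6 fibroblast markers 4 were at or above 10 CPM, with a sum of 49.8 to 121 CPM in PBMCsec and 40.1 to 567 CPM in vehicle libraries, and 0 were at 0. For 11 macrophage and dendritic markers, 2 were above 10 CPM and 2 at 0, with sums of 13.7 to 1186 CPM in PBMCsec and 0.0 to 280 CPM in vehicle libraries. Their part in the Krt6a values was not tested.

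Krt6a in cluster 14, the cluster with its highest level, lay the other way. It was at 1900, 3587, 2067 and 1809 CPM in PBMCsec and at 3857, 5282, 4508 and 3178 CPM in vehicle libraries. Only libraries 3 and 4 of each group had 10 cells or more of it (15 and 31, 87 and 54), and vehicle library 1 had 2. The groups overlapped (exact permutation p = 0.0571, on a cluster chosen after its values were seen). The per-library log2 ratio of Krt6a in interfollicular-like cells to that in cluster 14 was -2.68 ± 0.50 in PBMCsec and -6.05 ± 1.84 in vehicle libraries (10 CPM added, exact permutation p = 0.0286). Without vehicle library 1 the vehicle mean was -5.20 ± 0.86 (exact permutation p = 0.0571). Krt6a of interfollicular-like cells already separated the groups, so the p-values of this ratio are no separate support for a difference.

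Krt6b counts in interfollicular-like cells rested on very few cells. Without TMM scaling it was at 214, 70.2, 2.42 and 166 CPM in PBMCsec and at 0.0, 0.0, 4.36 and 5.57 CPM in vehicle libraries. In PBMCsec libraries 1, 2 and 4, 10, 1 and 3 cells held at least 3 Krt6b UMIs, all in the suprabasal-like cluster. In PBMCsec library 3 and vehicle libraries 1 to 3 there were 0 such cells and in vehicle library 4 there was 1. A single cell gave 71.6% of the Krt6b UMIs of PBMCsec library 4. The 0 of 404259 UMIs in vehicle library 2 allow up to 7.42 CPM. In the fit of all 8 libraries Krt6b did not pass the filter on low counts. With PBMCsec library 3, at 2.42 CPM, left out it passed. It was then called by edgeR (log2 difference 5.23, adjusted p = 0.00013), among 5 called of 7258 genes. With no filter on low counts it was called as well (4.74, adjusted p = 1.9e-11), among 23 of 15176 genes. Only PBMCsec libraries 1, 2 and 4 were above 5.57 CPM, so neither call is separate support for a treatment difference.

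These 14 PBMCsec cells also held other wound-type keratins, as a description of cells chosen by Krt6b. Krt6a was at 5301 CPM and Krt16 at 4761 CPM in them, against 136 and 693 CPM in the other 51 suprabasal-like cells of the same libraries. Krt1 was at 3602 CPM against 7058 CPM and Krt10 at 5313 CPM against 9337 CPM. Of these 14 cells, 10 came from PBMCsec library 1, where suprabasal-like cells held only 3507 CPM of Krt10 and 2597 CPM of Krt1. The part of the library in these differences was not tested. Fabp5, a fatty acid binding protein, was at 18831 CPM against 622 CPM and BC100530, a stefin A family gene, at 9421 CPM against 833 CPM. Both were named after their values had been seen.

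Most Krt6b UMIs of epithelial barcodes lay above the upper limits on genes and UMIs. With no upper limit the 4 PBMCsec libraries held 2699, 3925, 21 and 1609 Krt6b UMIs in epithelial barcodes, in place of 230, 12, 11 and 155. The vehicle libraries held 277, 12, 28 and 19, in place of 0, 0, 27 and 12. Vehicle library 1 thus had Krt6b in 10 of 154 barcodes once the limits were lifted, with 44.8% of its UMIs in 1 barcode. With up to 10% mitochondrial UMIs, it had 80 Krt6b UMIs, 98.8% of them in 1 barcode, and the log2 difference in all epithelial cells was 1.11 in place of 4.02. Krt6a UMIs of epithelial barcodes rose as well with no upper limit. They were 9822, 10609, 1809 and 6428 in PBMCsec libraries, in place of 900, 404, 1137 and 1371. In vehicle libraries they were 2463, 2617, 5088 and 4143, in place of 73, 312, 4830 and 2323.

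**Figure D4:**
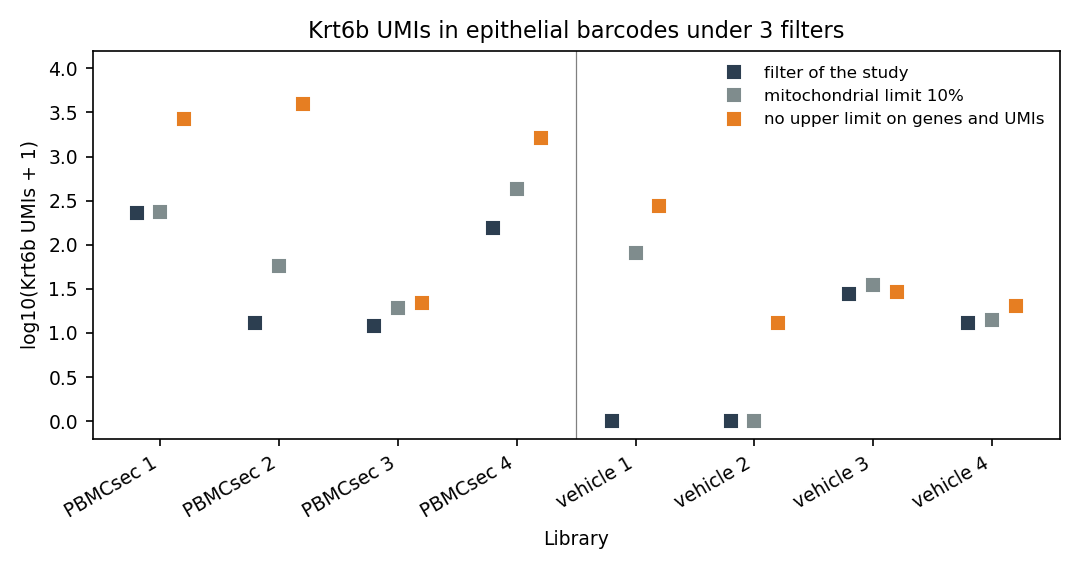
Krt6b UMIs in epithelial barcodes of each library (x axis) on a log10(UMIs + 1) axis, under the study's filter, a 10% mitochondrial limit, and no upper limit on genes and UMIs. PBMCsec libraries 1, 2 and 4 rise to 2699, 3925 and 1609 UMIs without upper limits, vehicle library 1 to 277, and the other 4 libraries stay at or below 28 without upper limits and at or below 34 under the 10% mitochondrial limit.

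Genes that work with keratins were counted from 4 lists, and 0 were called in either set of cells by edgeR. The lists had been chosen with earlier results of these data known, so their counts are a description. Of 20 filament anchors tested in all epithelial cells (desmosome and hemidesmosome genes such as Pkp1, Jup and Dst), 18 were lower and 2 higher, with a median log2 difference of -0.20 and 0 at an unadjusted p under 0.05. Pkp1, a desmosome plaque gene, had -0.37 ± 0.25. Of 19 regulators of keratin genes, 10 were lower and 9 higher (median -0.02). Trp63, the master regulator of stratified epithelia, had a log2 difference of -0.34 ± 0.19, with 241 to 405 CPM in PBMCsec and 407 to 475 CPM in vehicle libraries, which did not overlap (1.24% of all genes did not).

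Of 12 wound-activation genes tested in all epithelial cells, 9 were higher and 3 lower, with a median of 0.17. This list, too, had been chosen with earlier results of these data known. At an unadjusted p under 0.05, 3 were higher, namely the growth factor Areg (2.03 ± 0.57), Slpi (4.2 ± 1.31) and Lcn2 (5.67 ± 1.95). Of all 10931 genes tested, 1.06% were higher at this threshold. Areg was at 12.5 to 53.9 CPM in PBMCsec and at 1.09 to 8.94 CPM in vehicle libraries. The groups did not overlap for Areg, as for 1.24% of all genes. In interfollicular-like keratinocytes it lay the other way, with a log2 difference of -0.64 ± 0.44, 0.0 to 10.7 CPM in PBMCsec and 2.60 to 18.3 CPM in vehicle libraries. Areg was also a leading gene of the T and B cell-like cluster 12. In all epithelial cells 11 T and B cell markers summed to 77.4 to 201 CPM in PBMCsec and 24.4 to 623 CPM in vehicle libraries. The part of such cells in the Areg values was not tested. Slpi was at 3.52 to 419 CPM in PBMCsec and at 0.0 to 11 CPM in vehicle libraries, with overlap. Lcn2 ranged from 0.527 to 1183 CPM in PBMCsec and from 0.0 to 9.96 CPM in vehicle libraries, so that the groups overlapped. Of 8 other soft keratins, Krt18 (5.54 ± 1.86) and Krt8 (3.94 ± 1.45), the pair of simple epithelia, were higher at an unadjusted p under 0.05. Krt75 (-2.56 ± 0.69), a follicle keratin, was lower. Among all genes 1.06% were higher and 49 of 10931 lower at this threshold. Krt18 ranged from 3.19 to 1237 CPM in PBMCsec and from 0.0 to 8.89 CPM in vehicle libraries, and Krt8 from 5.98 to 595 CPM and from 0.0 to 13.8 CPM, so that the groups overlapped for both. In interfollicular-like keratinocytes 7 wound-activation genes were tested, 4 of them lower and 3 higher (median -0.01). Sprr1b, a cornified envelope precursor named after its value was seen, had 2.23 ± 0.91 with an unadjusted p of 0.026 in edgeR. Of all genes tested there, 0.733% were higher at an unadjusted p under 0.05. Sprr1b was at 0.0 to 59.4 CPM in PBMCsec and at 0.0 to 11.1 CPM in vehicle libraries, so that the groups overlapped.

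The makeup of the epithelium, which bears on each sum above, was compared between groups as well. Interfollicular-like cells were 32.5, 23.4, 37.3 and 18.3% of epithelial cells in PBMCsec and 28.0, 32.1, 24.8 and 33.5% in vehicle libraries (exact permutation p = 0.714). Over the 12 clusters the lowest adjusted p of exact permutation tests was 0.997. Suprabasal-like cells were 10.9 ± 3.03% and 8.61 ± 5.25%, activated-like cells 7.73 ± 4.27% and 10.2 ± 5.09%.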

How the data were processed

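The 8 libraries had been made with 10x Genomics 3′ chemistry and counted against mm10 with Cell Ranger 3.0.2, per the labels. The deposited files hold raw UMI counts per gene and barcode, which the authors had not normalized. The 10 keratins and the gene lists were chosen with earlier results of these data known. The study's filter was applied (between 500 and 4000 genes, no more than 20000 UMIs, mitochondrial share up to 5%), and Gm42418, Gm17056 and Gm26917 were removed. Scrublet marked 25 cells (0.407%), and no doublets were removed. Whether this low share reflects few doublets or missed ones was not tested.

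Libraries were integrated in Seurat 5.3.0 (2000 variable features without any of 53 keratin genes, 30 dimensions, resolution 1). Clusters were named from at least 3 markers above 2-fold, none of them a keratin. Barcodes added under looser filters were given the cluster with the nearest mean profile, a step that returned the epithelial side of 99.6% and the interfollicular-like side of 99.0% of kept cells.

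UMI counts were summed per library and tested with edgeR 4.0.16 (quasi-likelihood test, TMM, filterByExpr, Benjamini-Hochberg over all genes, called at an adjusted p under 0.05), with DESeq2 1.42.0 as an alternative. On data simulated for all epithelial cells (10716 genes), edgeR called 92.6% of genes changed 4-fold, 24.2% of those changed 2-fold and 0.057% of unchanged genes. Spread in these data came from edgeR's trend over all genes, not from each gene. The SE of an edgeR log2 difference was its absolute value divided by the square root of the test's F statistic. It is thus an approximate value and not an estimate from the fit itself. Single values per library were compared by exact permutation tests, two-sided, over all 70 ways to label the libraries (scipy 1.17.1), with 0.0286 as the smallest p. CPM are UMIs of the summed cells scaled to 1000000. A count of 0 was given an upper limit of 3 UMIs, and limits cover counting error only. The summed counts set the precision, at 237526 to 8629146 UMIs per library in epithelial and 78619 to 2479133 in interfollicular-like cells. A minimum of 10 interfollicular-like cells per library had been planned, which vehicle library 1 did not meet, and all 8 libraries were kept. Named were all 10 keratins, the 3 non-keratin genes most like Krt14, Krt10 and Krt6a over the epithelial clusters, and up to 4 genes per list by lowest p. Alternatives were other normalization, filters, cluster resolution (which left both sets of cells unchanged), library subsets and a replicate block. The fit of libraries with at least 20 interfollicular-like cells, the Krt6a ratio to cluster 14 and the pooled cluster levels without a library were chosen after seeing the data.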

Additional observations from a re-analysis of the deposited data

Results flagged for a closer look

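Of 58 groups of 4 libraries looked at, 3 held a library far from the others, where chance marks about 1 in 20 groups. Krt10 in interfollicular-like keratinocytes of PBMCsec library 1 was at 781 CPM, with the next library at 4034 CPM. The wound-type share of keratin UMIs in interfollicular-like keratinocytes of vehicle library 2 was 6.25%, with the next at 3.59%. The summed level of the 10 keratins in non-epithelial cells of vehicle library 3 was 565 CPM, with the next at 179 CPM.

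The treatment difference of Krt6a was compared between 2 sets of cells. The difference in interfollicular-like keratinocytes minus that in cluster 14 was 3.36 on the log2 scale (exact two-sided permutation test of the per-library ratio, p = 0.0286, the smallest possible with 8 libraries). Without vehicle library 1 it was 2.51 (exact permutation p = 0.0571). The comparison was chosen after the values had been seen, and 2 to 9 cells of cluster 14 stood behind 4 of the libraries. In interfollicular-like keratinocytes the groups already did not overlap, and cluster 14 lay the other way. The p-value of the ratio is therefore no separate support for a difference.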

How the results depend on the processing

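Of the alternative values, 443 kept their direction and side of the threshold, 78 changed sign, 8 moved and 2 newly passed the threshold. Clusters at resolution 1.5 gave the same cell and UMI counts per library in both sets. Values of that setting, which are among the 443, could therefore not differ. In all epithelial cells 0 keratins were called under any alternative run. DESeq2 called 1 gene in each set of cells. In interfollicular-like keratinocytes, libraries 1 and 2 alone gave 7 called of 3768 genes, and no filter on low counts gave 23 of 15176. Each included 2 keratins, Krt6a (2.91 and 1.68) and Krt6b.

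The log2 differences that changed sign were, in all epithelial cells, Krt1 0.43, Krt10 0.24, Krt14 -0.013 and Krt6a 0.76 with libraries 1 and 2 alone. With libraries 3 and 4 alone they were Krt15 0.18, Krt16 -0.52 and Krt5 0.029. With no upper limits they were Krt1 0.0076, Krt15 0.17 and Krt6a 0.995, with up to 10% mitochondrial UMIs Krt14 -0.020 and Krt6a 0.024, without the highest doublet scores Krt6a 0.0030, and in libraries with at least 20 interfollicular-like cells Krt14 -0.035. In interfollicular-like keratinocytes they were Krt1 -0.19, Krt10 -0.33 and Krt5 0.22 with libraries 3 and 4 alone, and Krt16 0.094 and Krt77 0.72 with libraries 1 and 2 alone. Libraries with at least 20 such cells gave Krt1 -0.093, Krt10 -0.21, Krt17 -0.28 and Krt5 0.067. Up to 10% mitochondrial UMIs gave Krt1 -0.12, Krt10 -0.20 and Krt16 0.42, and no upper limits gave Krt16 0.94. The suprabasal share in these cells differed by 1.83 points both as a mean over cells and with no upper limits, and the share of cells with at least 3 Krt16 UMIs by 1.03. The causes were not tested.

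Leaving out 1 library at a time gave, in all epithelial cells, -0.53 to 0.51 for Krt1, -0.60 to 0.33 for Krt10, -0.070 to 0.11 for Krt14, -0.27 to 0.13 for Krt15, -0.51 to 0.35 for Krt16, -0.18 to 0.28 for Krt17, -0.23 to 0.047 for Krt5, -0.49 to 0.17 for Krt6a and -1.41 to -0.29 for Krt77. In interfollicular-like keratinocytes it gave -0.33 to 0.48 for Krt1, -0.32 to 0.57 for Krt10, -0.56 to 0.15 for Krt16, -0.24 to 0.84 for Krt17, -0.11 to 0.10 for Krt5 and -0.93 to 0.091 for Krt77. There it gave 0 to 5 called genes and 0 to 1 keratins. That keratin was Krt6b without PBMCsec library 3, among 5 called of 7258 genes. Share differences ranged from -4.75 to 0.41 points for the suprabasal share and from -0.13 to 4.12 for the wound-type share of all epithelial cells. They ranged from -5.87 to 3.36 for the suprabasal share and from -13.8 to 0.96 for cells with a Krt16 UMI of interfollicular-like keratinocytes. The non-epithelial level ranged from -85.9 to 67.1 CPM.

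Same-numbered libraries had correlations of -0.02 to 0.47 over both sets of cells, and not every library was most like its own number, so the numbers were not taken as pairs. With the replicate number as a block, 0 genes were called, and Krt1 was at 0.24, Krt10 at 0.087 and Krt16 at -0.15 in all epithelial cells. Depth was low for vehicle library 1, where 7 cells limit every interfollicular-like value.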
